A study of Mus musculus with 4 samples.

Results

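Rgs16-positive pericytes of the heart, 7 days after a coronary artery was tied off, are described here against the Rgs16-negative pericytes of the same library. Pericytes are the mural cells that wrap capillaries. The members were selected on measured values: of 4263 cells kept in the ligated library, 813 counted as pericytes because at least 3 of the 6 genes Rgs5, Kcnj8, Vtn, Colec11, Abcc9 and Higd1b had a UMI (a sequenced RNA molecule counted once) and Myh11 had none. Among these 813, 99 held at least 1 UMI of Rgs16 and 714 held 0. The series as a whole kept 30454 cells in 4 libraries.

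The ligated library holds tdTomato+ heart cells of C57BL/6 mice of genotype Hic1 CreERT2 tdTomato, in which a drug-inducible Cre made from the Hic1 gene switches on the red reporter, collected 7 days after ligation of the left anterior descending artery (LAD). A tdTomato library of the same genotype came from undamaged hearts, and a citrine library came from undamaged hearts of the Hic1 Citrine reporter strain. A PDGFRa library mixed undamaged hearts with hearts taken 7 days after LAD ligation, from mice carrying an H2BEGFP reporter in Pdgfra (B6.129S4-Pdgfratm11(EGFP)Sor/J). The first 3 libraries pooled 3 hearts each and the PDGFRa library pooled 4, so each group is 1 library, the ages are not given in the sources used here, and the cells are not replicates. No p-value is given; every interval is a 95% interval for counting error only, and differences between libraries cannot be told apart from differences between hearts or preparations.

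Rgs16 belongs to the regulators of G-protein signalling, proteins that speed the return of activated G-protein alpha subunits to their resting state and so shorten signals from G-protein-coupled receptors; Rgs5, the classical pericyte marker, is of the same family. Pericytes support capillary walls, and in inflamed tissue mural cells can present adhesion molecules and release cytokines. Il6 encodes a cytokine that signals through the Il6st receptor subunit to STAT3, Sele encodes E-selectin, an adhesion molecule best known from activated endothelium, Ngfr encodes the p75 neurotrophin receptor, Igfbp5 a secreted binder of insulin-like growth factors, and Thy1 a surface protein of many mesenchymal cells. Promoters of Il6, Cxcl10 and Sele are textbook targets of the transcription factor NF-kB, which is held inactive by the product of Nfkbia.

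The regions before the starts of Rgs16 and of 3 of the genes described below are printed, because these genes had high ratios in the Rgs16-positive cells and hold the motif marked. Each line gives 250 bases that end just before the RefSeq start (GRCm38.p6), 5′ to 3′ on the strand of the gene, with every match to GGGANNNNCC, a loose form of the NF-kB site, on either strand in capitals. The regions are chr1:153740103-153740352 on the + strand for Rgs16, chr5:30012864-30013113 on the + strand for Il6, chr1:164047984-164048233 on the + strand for Sele and chr5:92348890-92349139 on the - strand for Cxcl10, which encodes a chemokine for T cells.
Rgs16: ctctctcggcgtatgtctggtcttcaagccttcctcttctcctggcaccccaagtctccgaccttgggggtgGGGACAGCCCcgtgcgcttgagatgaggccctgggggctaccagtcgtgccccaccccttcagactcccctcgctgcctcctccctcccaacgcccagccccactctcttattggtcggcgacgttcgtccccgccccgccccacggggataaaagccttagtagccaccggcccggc
Il6: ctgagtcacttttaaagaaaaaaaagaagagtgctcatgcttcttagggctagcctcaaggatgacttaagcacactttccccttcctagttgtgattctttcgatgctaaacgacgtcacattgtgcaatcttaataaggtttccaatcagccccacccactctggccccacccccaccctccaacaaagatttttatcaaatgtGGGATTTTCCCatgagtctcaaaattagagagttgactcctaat
Sele: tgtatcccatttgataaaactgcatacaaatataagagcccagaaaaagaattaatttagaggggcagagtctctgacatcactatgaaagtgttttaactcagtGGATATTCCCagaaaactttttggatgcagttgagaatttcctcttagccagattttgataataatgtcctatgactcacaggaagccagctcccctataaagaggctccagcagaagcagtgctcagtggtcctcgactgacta
Cxcl10: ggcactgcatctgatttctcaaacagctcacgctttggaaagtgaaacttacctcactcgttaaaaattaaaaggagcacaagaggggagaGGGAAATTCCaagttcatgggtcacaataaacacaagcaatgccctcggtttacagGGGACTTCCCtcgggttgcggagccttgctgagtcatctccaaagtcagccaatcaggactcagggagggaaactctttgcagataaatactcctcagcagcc
The Rgs16 match begins 178 bases before the start and the Sele match 145 bases before it. In Il6 a pair of overlapping matches begins 44 and 43 bases before the start, and in Cxcl10 the matches begin 159 and 103 bases before it. The motif is common: 6767 of 32544 RefSeq promoter windows of 300 bases (250 before to 50 after the start), or 20.8%, hold it on either strand. Of Rgs16, Igfbp5, Sele, Ngfr and Il6, 4 of 5 held it, all but Ngfr. Thy1, Tnfsf9, Cthrc1, Rrad, Adamts4 and Gm13889 had no entry. Among the 12 genes with the highest ratios given below, 7 had an entry and 4 of these held it, namely Cxcl10, Il6, Cxcl2 and Apold1. A match is a description of letters and does not show binding.

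Rgs16 (ENSMUSG00000026475) lies on chromosome 1 at 153740349 to 153745468 of mm10, on the + strand, where the annotation also places the antisense gene Gm28513. Whether reads of the antisense gene entered the Rgs16 counts was not tested. The 99 positive cells held 478 Rgs16 UMIs in all. In 34 of them a single UMI made the call, 65 held 2 or more, 36 held 5 or more, and the highest cell held 24. Just inside the rule therefore lie 34 cells with 1 UMI, and just outside it 714 cells with 0.

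Deeper cells show a given RNA more often, and the positive cells were deeper, with a median of 4166 UMIs against 2194.5. Each cell was therefore thinned at random to 1000 UMIs before shares of cells were compared. At that depth 57 of 813 ligated pericytes held an Rgs16 UMI, 7.01% (5.35 to 8.99%, exact Clopper-Pearson), against 12.2% without thinning. In undamaged tdTomato pericytes the share was 2 of 185, 1.08% (0.131 to 3.85%), with 3 positive cells unthinned. In undamaged citrine pericytes it was 1 of 261, 0.383% (0.00970 to 2.12%), with 4 unthinned. The interval of the ligated library lies above both. Median depths were 2382 UMIs in ligated pericytes, 1601 in undamaged tdTomato and 4838 in undamaged citrine pericytes.

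Within the ligated library, Rgs16 was found in both kinds of mural cell and seldom in fibroblasts. At 1000 UMIs, smooth muscle cells (Myh11 and at least 3 other contractile markers) were positive in 14 of 284 cells, 4.93% (2.72 to 8.13%), an interval that overlaps that of pericytes. This rule set no limit on pericyte markers. The 25 cells positive without thinning showed a median of 5 of the 6, so the 2 classes are not cleanly apart. Fibroblasts were positive in 10 of 2782 cells, 0.359% (0.173 to 0.660%), at a median depth of 4011 UMIs. The share that free RNA gives was not measured apart from these. Summed over all cells, the Rgs16 level was 192 CPM (UMIs of the gene in each 1000000 UMIs of the group) in ligated pericytes, 137 in ligated smooth muscle cells, 6.57 in ligated fibroblasts, 27.6 in undamaged tdTomato pericytes and 4.64 in undamaged citrine pericytes. Undamaged smooth muscle cells stood at 19.3 CPM in the tdTomato library and at 206 CPM (142 to 290) in the citrine library. The citrine level came from 33 UMIs in 2 cells. At 1000 UMIs, 1 of 139 tdTomato cells, 0.719% (0.0182 to 3.94%), and 2 of 24 citrine cells, 8.33% (1.03 to 27.0%), were positive. Smooth muscle cells were thus not low in Rgs16 in each undamaged library.

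**Figure D1:**
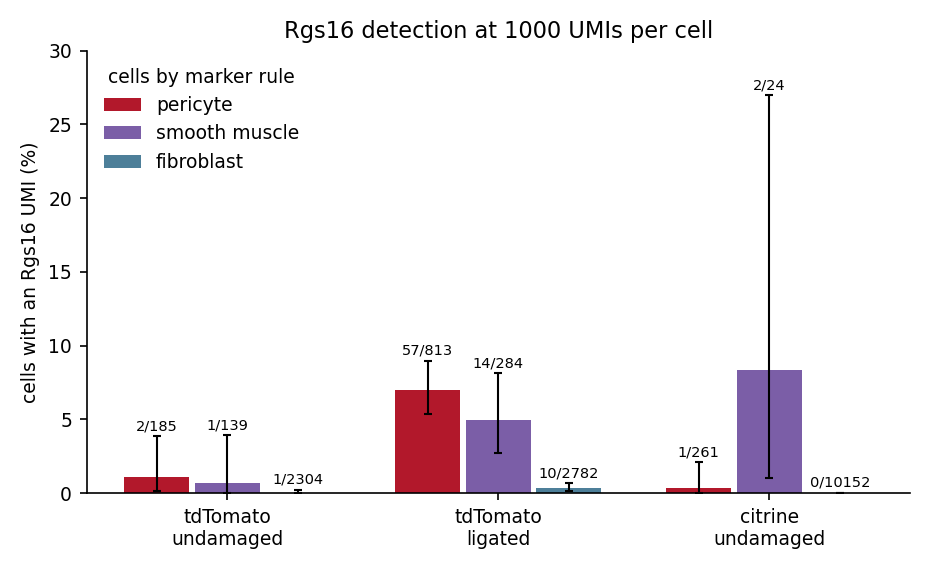
Share of cells with an Rgs16 UMI (percent, y axis) after thinning every cell to 1000 UMIs, for pericytes, smooth muscle cells and fibroblasts (colours) of 3 libraries (x axis). Bars are shares, lines are exact 95% intervals and labels are positive cells over all cells; the ligated pericytes stand at 57 of 813.

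For the comparison of genes, each positive cell was paired with the unused negative cell nearest in total UMIs, within 10%. This gave 98 positive and 98 negative cells with 442333 and 442352 UMIs and a median of 4160 UMIs in both groups. Genes with at least 50 UMIs over both groups entered, 2824 in all, and a gene was called at a CPM ratio of at least 2 or at most 0.5. Of these genes 52 were called higher in Rgs16-positive cells, 1.84% of those tested, and 54 were called lower, 1.91%. The median log2 ratio over all tested genes was -0.04. The split itself was made on these same cells, so what follows describes them and tests nothing. A second setting took all 99 and 714 cells thinned to 1000 UMIs, so that each cell had the same weight; there 110 of 2763 genes were called higher, 3.98%, and 192 lower, 6.95%.

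The depth-matched groups did not hold the same amount of fibroblast RNA, and this touches every ratio below. A UMI from at least 2 of 7 fibroblast markers (Pdgfra, Tcf21, Dpt, Lum, Smoc2, Mfap5, Pi16) was seen in 22 of the 98 positive cells, 22.4%, and in 41 of the 98 negative cells, 41.8%. Before matching the shares were 23.2% of 99 and 17.8% of 714. Summed over a list of 10 fibroblast markers, all above 0 in both groups, the level was 4847 CPM in positive and 13236 CPM in negative matched cells. The main comparison was therefore repeated without the cells that showed 2 or more of these markers, a choice planned with earlier results of these data known, which left 76 cells in each group. There 58 of 1993 genes were called higher, 2.91%, and 30 lower, 1.51%. Of the 52 genes called higher before, 28 were called again and 51 stayed above 1; of the 54 called lower, 2 were called again and 40 stayed below 1. No doublet caller was run, and the part of mixed droplets in these values was not tested.

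The 10 endothelial markers summed to 778 CPM in positive and 742 CPM in negative matched cells, with Cdh5, Kdr, Tie1, Vwf and Cldn5 at 0 in the positive ones and Pecam1, Emcn, Egfl7, Fabp4 and Ly6c1 above 0. Among the 26 Rgs16-positive pericytes with a Sele UMI, Fabp4 was seen in 18, Emcn in 1 and Ly6c1 in 1, and the other 7 endothelial markers were at 0; Fabp4 was seen in 50 of the 73 without Sele. Macrophage and monocyte markers summed to 13.6 and 2.26 CPM, and lymphocyte, neutrophil and epicardial markers were at 0 in both groups. Smooth muscle markers summed to 1298 and 1395 CPM. The 6 genes of the pericyte rule, which selected these cells, summed to 17876 CPM in positive and 14448 CPM in negative matched cells. Only 2 of the 6, Rgs5 and Colec11, had a ratio above 1 there. Over all cells the order was the other way, at 16987 CPM in positive and 20392 CPM in negative cells. The median cell of either group showed all 6.

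Il6 set the groups apart most among the genes that many cells shared. It was seen in 41 of 98 positive and 13 of 98 negative matched cells, from 0 to 54 UMIs a cell in the positive group and from 0 to 14 in the negative group, with a median of 0 in both. The ranges overlap, and most positive cells had no Il6 UMI. The level was 965 CPM against 85.9 CPM, a ratio of 10.97 (8.05 to 16.1). Without the 5 highest cells of each group it was 533 against 21.7 CPM, and without cells showing 2 or more fibroblast markers the ratio was 24.1.

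Thinned to 1000 UMIs, Il6 was seen in 29.3% of all 99 positive cells (20.6 to 39.3%) and in 2.94% of the 714 negative cells (1.83 to 4.46%). Ligated fibroblasts, at 13.2%, and smooth muscle cells, at 7.75%, lay between them, so Il6 was not restricted to Rgs16-positive pericytes. Of the 85 pericytes with any Il6 UMI, 41 were Rgs16-positive.

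Sele was seen in 25 positive and 10 negative matched cells, with at most 12 and 4 UMIs in a cell. Its level was 181 CPM against 43.0 CPM, a ratio of 4.05 (2.53 to 7.36), and 5.35 without the cells with fibroblast markers. At 1000 UMIs the share was 17.2% of positive and 1.96% of negative pericytes, beside 0.324% of fibroblasts and 0.352% of smooth muscle cells. The interval of the positive pericytes (10.3 to 26.1%) lies above those of the other 3 groups. Where 33 cells with 1 Rgs16 UMI were set against 33 matched cells with 0, the log2 ratio of Sele was -0.15.

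Ngfr was seen in 34 positive and 13 negative matched cells, with at most 5 and 2 UMIs in a cell. The level was 111 CPM against 36.2 CPM, a ratio of 2.94 (1.71 to 5.77). At 1000 UMIs 13.1% of positive and 3.50% of negative pericytes held it, against 0.144% of fibroblasts. The ratio was 2.31 without the cells with fibroblast markers.

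In the matched cells the ratios of Igfbp5 and Thy1 lay below 2. Igfbp5 was seen in 79 positive and 55 negative matched cells, with a median of 5 UMIs against 1 and a highest cell of 68 against 67. The level was 1725 CPM against 1081 CPM, a ratio of 1.60 (1.42 to 1.79). It was past 2 with all cells thinned to 1000 UMIs, at 2.44 (2.05 to 2.89), and without matching, at 2.04. Thy1 was seen in 78 and 64 cells, with medians of 2 and 1 UMIs and highest cells of 8 and 9. Its level was 506 CPM against 407 CPM, a ratio of 1.24 (1.02 to 1.52), and it fell to the other side of 1, at 0.88, without the cells with fibroblast markers. The direction of Thy1 thus depends on those cells.

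These genes were combined differently from cell to cell. At 1000 UMIs, 48 of 99 positive cells, 48.5%, held at least 1 of Sele, Ngfr and Il6, against 58 of 714 negative cells, 8.12%. At least 2 of the 3 were seen in 10 positive cells, 10.1%, and in 2 negative cells, 0.280%. On full counts, 15 of the 26 Sele-positive cells among Rgs16-positive pericytes also held Il6, and 6 of them held Ngfr. Of the 56 pericytes with Sele, 26 were Rgs16-positive, and of the 92 with Ngfr, 34 were.

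**Figure D2:**
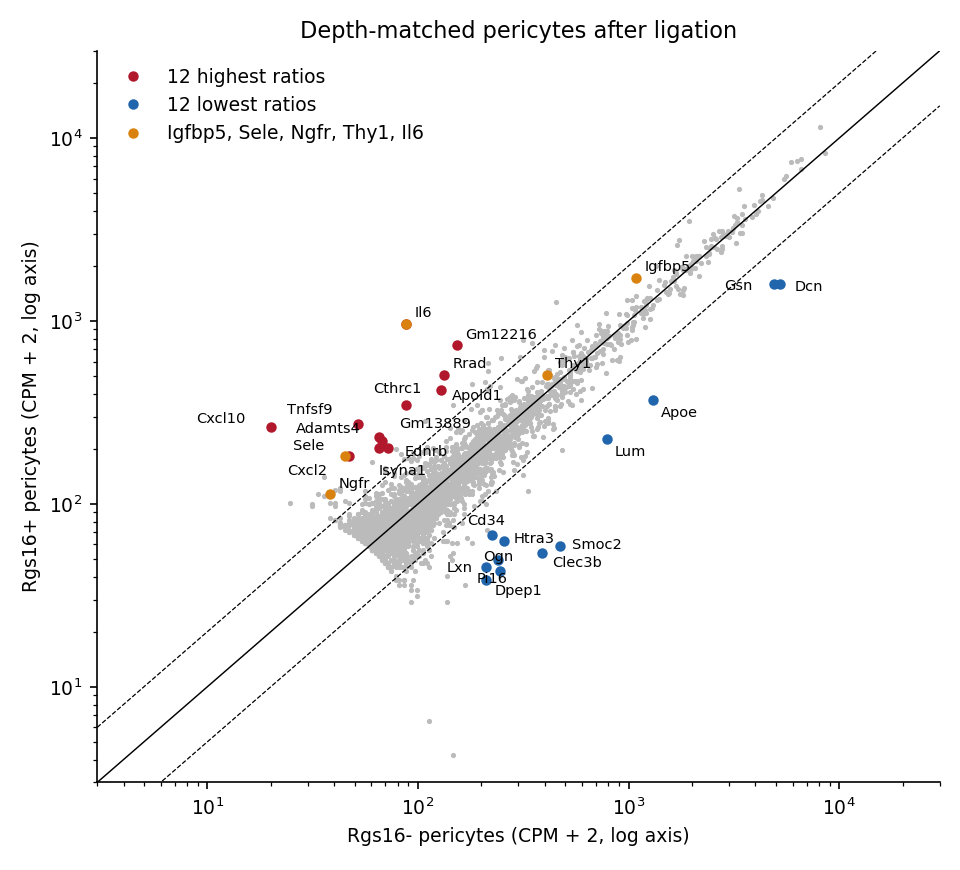
Summed level of each of the 2824 tested genes in 98 Rgs16-positive (y axis) and 98 Rgs16-negative (x axis) depth-matched ligated pericytes, in CPM plus 2 on log axes; the solid line is a ratio of 1 and the dashed lines are ratios of 2 and 0.5. Il6 (965 against 85.9 CPM) and Cxcl10 lie far above the lines, and Dcn, Gsn and other fibroblast genes lie below them.

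Beside Il6, the 12 highest ratios among genes with at least 100 UMIs held secreted or surface signals, namely Cxcl10, Cxcl2 (a chemokine for neutrophils), Tnfsf9 (4-1BB ligand) and Ednrb (an endothelin receptor). They also held the matrix protease Adamts4, the small GTPase Rrad, the early response gene Apold1, the inositol synthase Isyna1, the collagen-domain protein Cthrc1, and the little described genes Gm12216 and Gm13889. Tnfsf9 was seen in 43 positive and 13 negative matched cells, at 271 against 49.7 CPM, a ratio of 5.26 (3.44 to 9.03). Adamts4 was seen in 45 and 14 cells, at 231 against 63.3 CPM, a ratio of 3.55 (2.38 to 5.75). Rrad was seen in 58 and 32 cells, at 506 against 131 CPM, a ratio of 3.81 (2.88 to 5.25). These 3 genes were spread over many positive cells.

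Gm12216 was seen in 51 and 29 matched cells at a ratio of 4.79, and Apold1 in 56 and 32 cells at 3.26. Ednrb, with a ratio of 2.81, is the receptor through which endothelins can act on mural cells beside Ednra, whose ratio was 1.16. Gm13889 and Isyna1 had ratios of 3.27 and 3.10, and both lay at or just under 2 without the cells with fibroblast markers. With all cells thinned to 1000 UMIs Isyna1 was at 1.03 (0.437 to 1.84), from 10 UMIs in the positive cells, and Gm13889 at 2.23. Gm13889 shares its strand and part of its span with Gm27027, so its reads are uncertain; Tnfsf9 and Rrad also overlap other annotated genes (Gm11110 and Gm33023).

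Other high ratios rested on few cells. Cxcl10 was seen in 12 positive and 6 negative matched cells, at 262 against 18.1 CPM, a ratio of 13.0 (7.12 to 34.4). One cell of 3203 UMIs held 47 of the 116 Cxcl10 UMIs of the positive group, 40.5%; it also held 13 Rgs16 and 16 Il6 UMIs, and 10 of the 12 Cxcl10-positive cells held Il6. Cxcl10 overlaps Art3 on the opposite strand, and Art3, a pericyte gene, had a ratio of 0.41. Of the 80 Cxcl2 UMIs, 41 came from 1 cell, which also held 35 Il6 UMIs. The Cthrc1 ratio of 3.92 came from a single cell of 24282 UMIs that held 146 of the 152 Cthrc1 UMIs together with 346 Dcn and 152 Col1a1 UMIs, all 7 fibroblast markers and no Rgs5. With at least 2 Rgs16 UMIs required, which leaves this cell out, the ratio of Cthrc1 was 0.36.

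For Il6, Sele, Adamts4 and Tnfsf9 the interval of the cells with the most Rgs16 UMIs lies above that of the cells with 0. Il6 stood at 87.1 CPM in the 714 cells with 0, at 415 in the 34 cells with 1, at 488 in the 29 cells with 2 to 4 and at 1891 CPM in the 36 cells with 5 or more. In the class with 1 UMI, 54 of the 71 Il6 UMIs came from a single cell; without it, a setting chosen after seeing the data, the level was 103 CPM (59.8 to 164), and without the highest cell of each of the other classes it was 70.4, 309 and 1610 CPM. Sele stood at 22.8, 52.7, 181 and 304 CPM over the same classes, and Adamts4 at 42.6, 70.2, 160 and 456 CPM. Tnfsf9 went from 38.1 and 76.1 CPM to 314 and 410 CPM. Without the highest cell of each class Sele was at 20.8, 35.9, 130 and 231 CPM, so the class with 1 UMI lay near the cells with 0. These are all cells, unmatched, with median depths of 2194.5, 3986, 4653 and 3880 UMIs, so the 3 positive classes had similar depth.

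Igfbp5 did not follow the number of Rgs16 UMIs among positive cells, with 805 CPM at 0 and 1773, 1352 and 1758 CPM in the other classes. Ngfr stood at 33.2, 93.6, 105 and 119 CPM, with intervals of the 3 positive classes that overlap. Cxcl10 reached 674 CPM only in the class with 5 or more, beside 13.4, 70.2 and 13.9 CPM in the others. Dcn, a fibroblast proteoglycan, was at 3498 CPM at 0, 4563 at 1, 1666 at 2 to 4 and 390 CPM at 5 or more. The class with 1 UMI thus had a Dcn level above that of the negative cells, and it holds 2 cells of 24282 and 23326 UMIs with 346 and 378 Dcn UMIs.

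**Figure D3:**
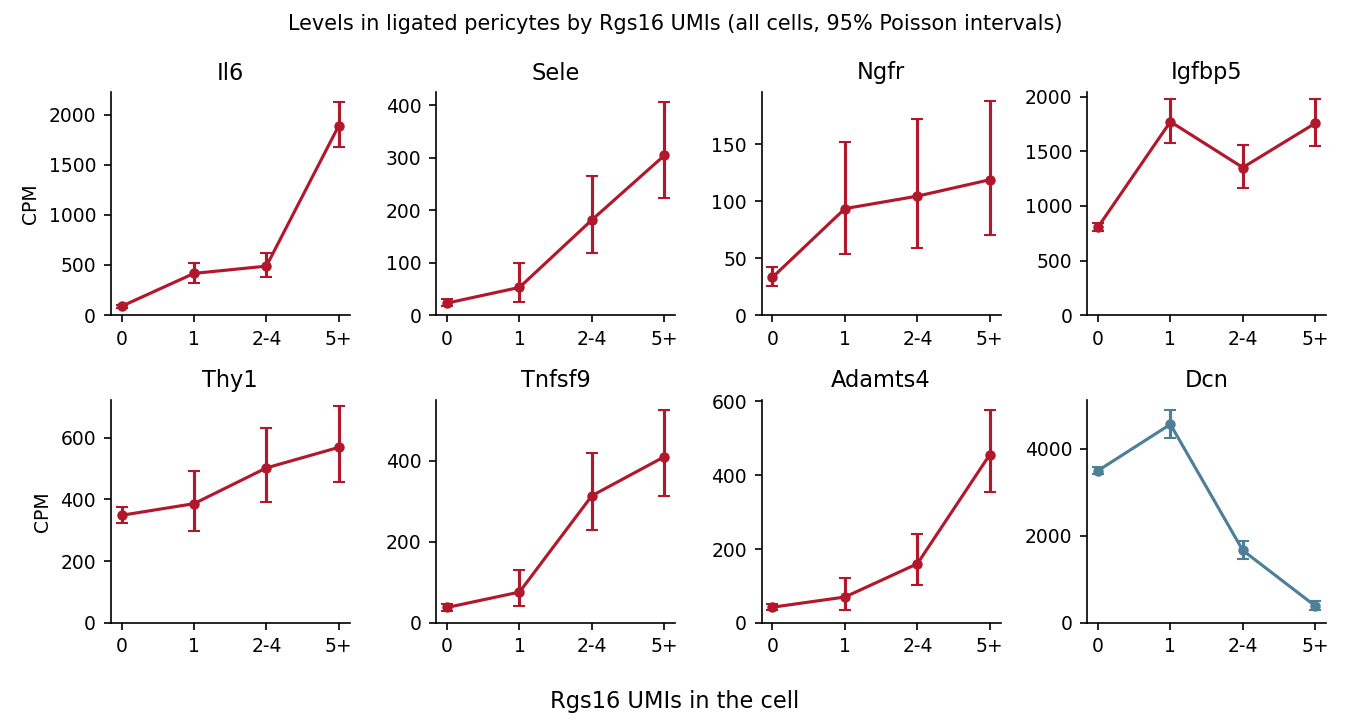
Level (CPM, y axes from 0) of 8 genes in ligated pericytes with 0, 1, 2 to 4, and 5 or more Rgs16 UMIs (x axis; 714, 34, 29 and 36 cells), with 95% Poisson intervals for counting error. Il6, Sele, Tnfsf9, Adamts4, Ngfr and Thy1 are highest in the last class, and Dcn is lowest there.

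Of the 54 genes called lower, 38 stood at least 2-fold higher in fibroblasts of the ligated library than in all its pericytes, 70.4%, against 9 of the 52 called higher and 5.35% of all tested genes. The 12 lowest ratios among genes with at least 100 UMIs were those of Smoc2, Clec3b, Ogn, Dpep1, Pi16, Lxn, Htra3, Apoe, Lum, Cd34, Dcn and Gsn, from 0.12 for Smoc2 to 0.33 for Gsn. Of 9 tested genes of the fibroblast marker list, 7 were called lower, with a median log2 ratio of -1.62 beside -0.04 over all tested genes. Dcn had 1583 CPM in positive and 5231 CPM in negative matched cells. Without the cells with 2 or more fibroblast markers the Dcn ratio was 0.95, and Apoe, Gsn, Htra3 and Dpep1 lay above 1. Smoc2, Lum and Pi16 are among the 7 markers that define the cells left out, so their own values there show nothing further.

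**Figure D4:**
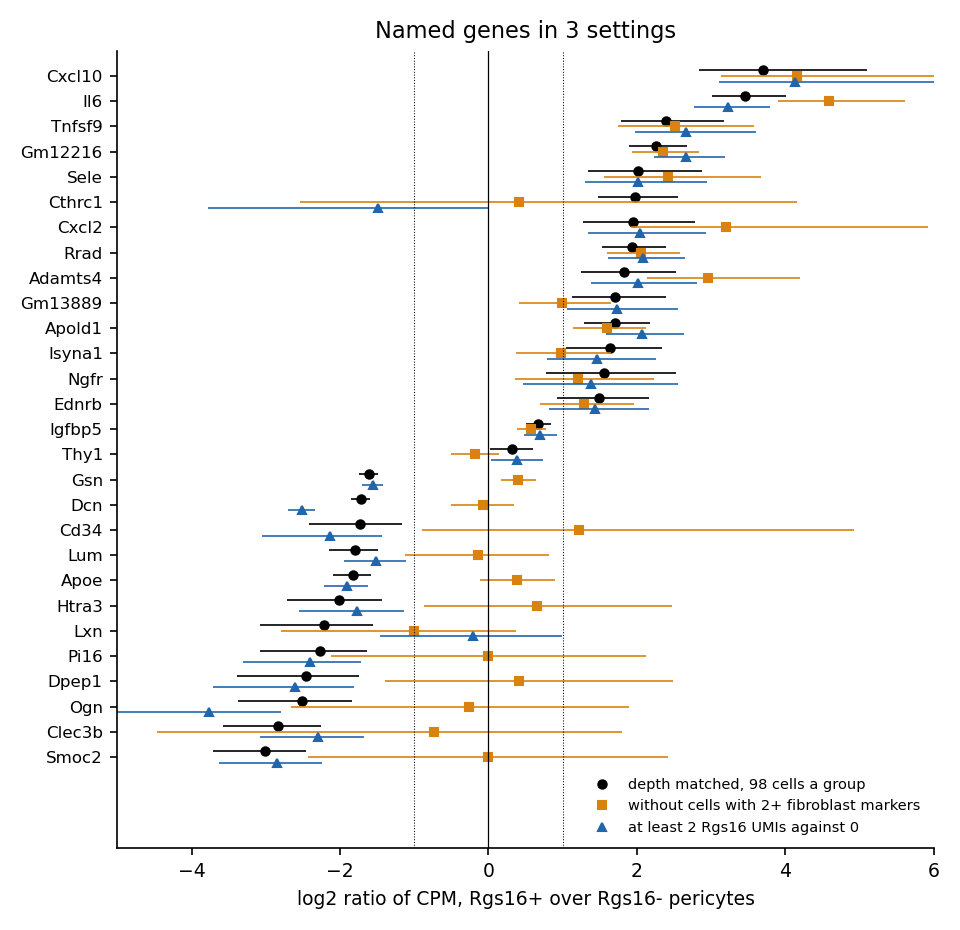
Log2 ratio of CPM, positive over negative pericytes (x axis), for 28 named genes (y axis) in 3 settings, with 95% counting intervals; dotted lines mark ratios of 0.5 and 2. Il6, Tnfsf9, Gm12216, Sele, Rrad and Adamts4 are above a ratio of 2 (the right dotted line) in each setting. Without cells with 2 or more fibroblast markers Dcn moves to a log2 ratio of -0.08 and Gsn to 0.40.

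Lists of genes are described by counts. Of 20 NF-kB response genes, 7 reached 50 UMIs; 3 were called higher and none lower, with a median log2 ratio of 0.90. They were Irf1 at 2.60, Nfkbia at 2.50 (789 against 314 CPM) and Tnfaip6, which encodes a hyaluronan-binding protein of inflamed tissue, at 2.00. Ier3 at 1.86, Nfkbiz at 1.39, Nfkb1 at 1.20 and Sod2 at 0.89 were not called. Without the cells with fibroblast markers 5 of 6 were called higher, Ier3 and Nfkbiz among them, with a median of 1.84.

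Genes of the STAT3 response, which lies downstream of Il6, gave 3 called higher and 1 lower of 8 tested, with a median of 0.62. Fosl2, Myc and Gadd45g, a stress-induced regulator of growth arrest, had ratios of 3.07, 2.84 and 2.81. Socs3, the feedback inhibitor of Il6 signalling, was at 1.65 and reached 5.50 without the cells with fibroblast markers. Serpina3n was at 1 against 64 UMIs, the latter from 8 negative cells. Among the IL-6 family and its receptors, 4 were tested; Il6 alone was higher, the receptor subunits Il6st and Osmr were at 1.19 and 1.22, and Il11ra1 was called lower at 0.42.

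Chemokines went both ways, with 3 of 9 tested called higher and 3 lower and a median log2 ratio of 0.00. Cxcl10, Ccl2 (3.88) and Cxcl2 (3.86) were higher. Ccl19, Cxcl16 and Ccl7 were lower, at 0.32, 0.37 and 0.42. Cxcl12, the homing chemokine of stromal cells, was at 1.60, and Cxcl1 was at 0.90 but at 5.40 without the cells with fibroblast markers. Interferon response genes gave 2 of 10 higher, Cxcl10 and Irf1, and 1 lower, Gbp2 at 0.45.

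Immediate early genes, which are switched on within minutes of a stimulus and also by tissue dissociation, gave counts that differed between settings. Among all matched cells 1 of 16 tested genes was called higher, Nr4a1 at 2.35, with Fos at 1.57, Jun at 0.83 and Egr1 at 0.90 and a median log2 ratio of 0.15. Without the cells with 2 or more fibroblast markers all 13 tested genes were called higher, from 2.04 for Ier2 to 5.16 for Zfp36, with Fos at 3.06, Jun at 3.07 and Atf3 at 4.82, and the median was 1.61. With all cells thinned to 1000 UMIs 9 of 13 were called higher, with Nr4a1 at 6.16, Fos at 2.35 and Jun at 1.83 and a median of 1.19. The part of dissociation in the levels of Il6, Nfkbia, Socs3 and Rgs16 itself was not tested. Heat shock genes gave 0 of 10 calls among all matched cells and 1 of 10 without those cells, Dnajb1 at 2.37.

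The values of the pericyte genes differed between the depth-matched cells and all cells. Among the matched cells, of 22 tested pericyte identity genes none was called higher and 1 lower, Art3, with a median log2 ratio of 0.08. Rgs5 had a ratio of 1.42, Pdgfrb, the receptor that recruits pericytes, 1.05, Notch3 1.30 and Gja4 1.63. Cspg4, the NG2 proteoglycan, was at 0.55 and, without the cells with fibroblast markers, at 0.41, where it was called lower together with Art3. With all cells thinned to 1000 UMIs 6 of 23 were called lower and none higher, with a median log2 ratio of -0.50, and without matching the median was -0.56. Cspg4 was then at 0.15 (3 UMIs in the positive cells), Art3 at 0.21 and Kcnj8, a potassium channel subunit of pericytes, at 0.46 (0.388 to 0.536). Rgs5, Rgs4 and Rgs3 were the RGS family members with enough UMIs beside Rgs16, with ratios of 1.42, 1.31 and 1.00, so none of these 3 was called.

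Fibrillar matrix genes also differed between settings. Among the matched cells, of 17 fibrillar matrix genes 2 were lower, Lum and Dcn, and none higher; Col1a1 was at 0.97, Col3a1 at 0.82 and Postn at 1.26. With all cells thinned to 1000 UMIs 8 of 17 were higher and Dcn alone lower, with a median log2 ratio of 0.92, Col1a1 at 2.26 (1.65 to 2.99), Col5a1 at 2.68 and Fn1 at 2.15; without matching the median was 0.71. Of 11 basement membrane genes Col18a1 was higher at 3.33 and Hspg2 lower at 0.48, while Col4a1, the main vascular collagen, was at 1.15. No smooth muscle contractile gene of 9 was called, with Acta2 at 0.70 and Tagln at 1.18. Among the myofibroblast and TGF-beta response genes, Thbs1 (2.78) was called higher beside Cthrc1. Among 7 genes of the IGF axis Igf1 was lower at 0.44 and none was higher; among the neurotrophin genes Ngfr was called and Ntf3, which encodes a neurotrophin, was at 0.64.

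The other lists held few calls. Of 5 leukocyte adhesion genes Sele was higher and Vcam1 was at 0.68. Of 7 vasoactive genes Ednrb was higher and S1pr3 lower at 0.47. Of 9 hypoxia and glycolysis genes Ddit4 was higher at 2.94 and the median was -0.31. Of 3 cell cycle genes Ube2c was higher at 2.74. Its ratio was 0.0998 without the cells with fibroblast markers, where no gene of the cell cycle list had enough UMIs to be tested. The direction of Ube2c thus depends on those cells. Outside the list, Cks2, Hmgb2 and Cenpa had the lowest ratios of the genes tested in that setting. They were at 0.25 (12 against 50 UMIs), 0.29 (27 against 96) and 0.32 (16 against 52). Among all matched cells these genes were at 0.84, 0.68 and 0.70 and were not called. Of 5 prostaglandin and nitric oxide genes Ptgis was lower at 0.49. Of 8 mesenchymal surface genes Cd34 was lower. No gene was called among 8 of MHC class I, 4 of complement, 4 of Notch signalling and 2 angiogenic factors.

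**Figure D5:**
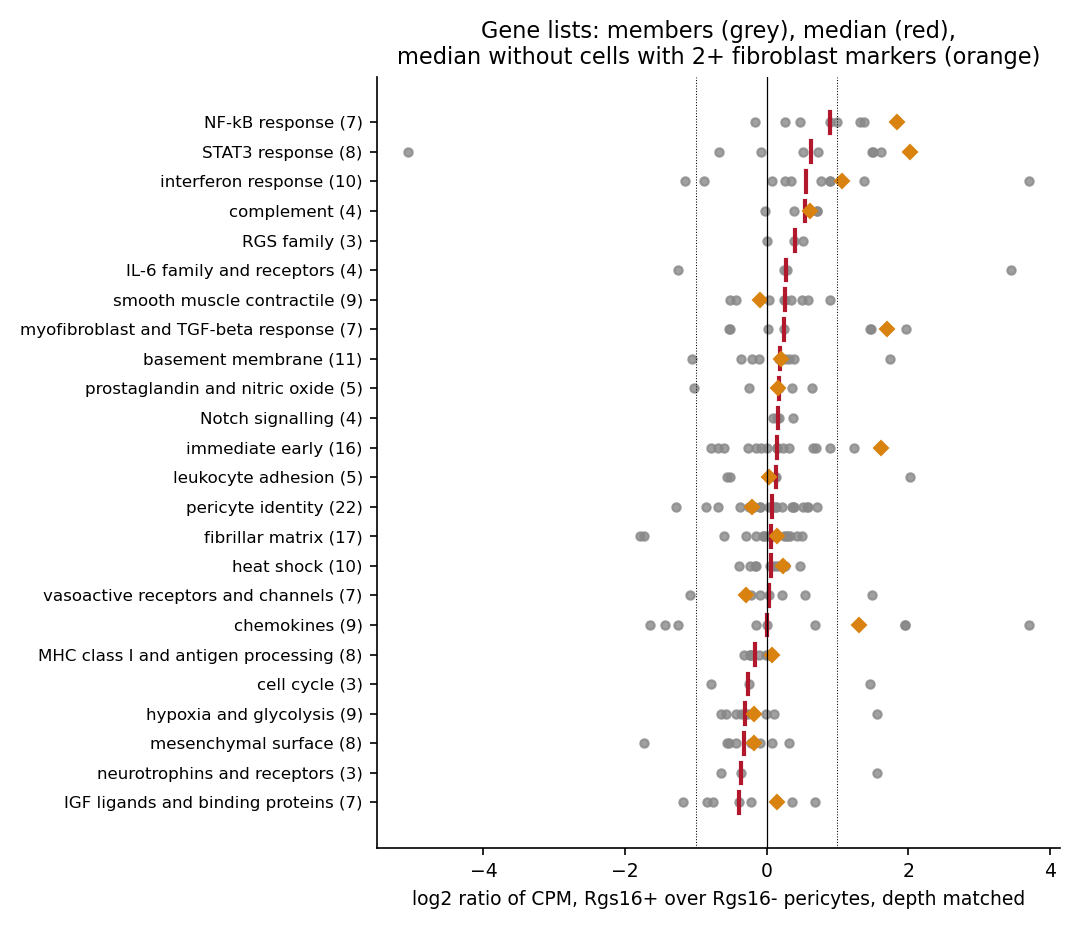
Log2 ratio of CPM, positive over negative depth-matched pericytes (x axis), for the tested members (grey) of each list (y axis, number tested in brackets), with the list median in red and the median without cells with 2 or more fibroblast markers in orange where 3 or more genes were tested. The NF-kB response list has the highest red median, at 0.90, and the immediate early list moves from 0.15 to 1.61.

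Set beside undamaged tdTomato pericytes, Sele and Ngfr were near the undamaged level in the negative cells and Il6 was above it. Il6 stood at 45.9 CPM in undamaged tdTomato pericytes, 87.1 CPM in ligated negative and 917 CPM in ligated positive pericytes. Sele stood at 30.6, 22.8 and 174 CPM, and Ngfr at 36.7, 33.2 and 105 CPM. Over undamaged tdTomato pericytes, ligated negative cells had ratios of 0.69 (0.370 to 1.65) for Sele and 0.85 (0.484 to 1.83) for Ngfr. For Il6 the ratio was 1.79 (1.12 to 3.46). In the 257 Rgs16-negative pericytes of the undamaged citrine library, Il6, Sele and Ngfr stood at 33.8, 26.2 and 5.83 CPM. The Ngfr level of ligated negative cells, 33.2 CPM, thus lay near 1 undamaged library and above the other.

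Thy1 and Igfbp5 were higher in both ligated groups than in undamaged tdTomato pericytes. In undamaged, ligated negative and ligated positive cells Thy1 stood at 171, 348 and 481 CPM. Igfbp5 stood at 576, 805 and 1639 CPM. The Rgs16-negative citrine pericytes stood lower still, at 58.9 CPM for Thy1 and 312 CPM for Igfbp5. Cxcl10 had no UMI in undamaged tdTomato pericytes and 2 UMIs in the 257 Rgs16-negative citrine pericytes. Against a floor of 3 UMIs over the tdTomato group, ligated positive cells were at least 27.1-fold higher. Each of these ratios sets 1 library against another.

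The undamaged libraries could not repeat the split. The 3 Rgs16-positive undamaged tdTomato pericytes held 5104 UMIs in all, and the 4 citrine ones held 11066, with no Il6, Ngfr or Cxcl10 UMI in either set. Sele had 1 UMI in the tdTomato set and 0 in the citrine set. Tnfsf9 had 0 UMIs in the tdTomato set and 8 in the citrine set, where 4 depth-matched negative cells held 1. By hashtag (antibody-borne oligos counted in that library, which the labels do not tie to single hearts), the 261 citrine pericytes fell into 14, 183, 25 and 0 cells, with 2, 0, 1 and 0 positive for Rgs16, and 39 without a clear tag, 1 of them positive.

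Smooth muscle cells of the ligated library showed part of the pattern on the same split. In 25 positive and 25 depth-matched negative cells, Il6 stood at 906 against 82.4 CPM, a ratio of 10.2 (5.93 to 22.6), Cxcl10 at 260 against 15.0 CPM, a ratio of 11.9 (4.46 to 149), and Apold1 had a ratio of 2.52. Sele had 9 UMIs against 0, while Igfbp5 and Ngfr had ratios of 1.27 and 1.24. Ednrb was at 3.47 (1.44 to 13.5) and Adamts4 at 2.69 (1.47 to 5.78), while Rrad and Gm12216 were at 1.24 and 1.02. Tnfsf9, Cxcl2 and Gm13889 were at 1.98, 1.73 and 1.72, and Isyna1 and Cthrc1 at 0.83 and 0.33. Dcn stood at 230 against 4359 CPM in the same cells, a ratio of 0.05, and Lum and Gsn had ratios of 0.14 and 0.25; at least 2 fibroblast markers were seen in 1 positive and 8 negative cells, and their part in these ratios was not tested. The median over all 284 smooth muscle cells was 3 of the 6 pericyte markers, and in the matched cells it was 5 in positive and 4 in negative ones.

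In 31 positive and 31 negative ligated fibroblasts the values lay the other way for Il6, at 308 against 696 CPM, a ratio of 0.45 (0.342 to 0.570), and Cxcl10 was at 0.23. Adamts4 was at 4.32 there (2.18 to 11.8). The difference between these classes of cells was not tested, since they come from 1 library. Between the tdTomato libraries 8 cell barcodes were shared; 1 belonged to a ligated pericyte and 0 to an Rgs16-positive one.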

How the data were processed

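Single-cell libraries were made from reporter-positive heart cells with a Chromium 3' kit and aligned to a modified mm10 genome with Cell Ranger, per the labels' protocols; Seurat 2.1 is named in the submitters' processing notes. The authors deposited whole-number UMI counts per gene and cell, used here as deposited. A cell was kept if it showed 500 or more genes and 1000 or more UMIs, of which no more than 10% were mitochondrial. Pericytes and their Rgs16 split follow the marker rule given in the report. Members, gene lists and alternatives were chosen with earlier results of these data known. Ligated pericytes held 1510 to 24681 UMIs. Positive and negative cells were paired on total UMIs within 10%; summed counts became CPM ratios with a pseudocount of 1 UMI per group and exact conditional-binomial intervals. Shares used 1 seeded thinning to 1000 UMIs. The ratio and matching code was tested on simulated data. Named genes were the 12 highest and 12 lowest ratios with at least 100 UMIs (no mitochondrial, ribosomal, Xist or Y-linked genes), the genes Rgs16, Igfbp5, Sele, Ngfr, Thy1 and Il6, and the highest and lowest members and defining members of 25 lists. Gene positions came from GENCODE M21 and promoter letters from RefSeq (GRCm38.p6). Python 3.11.15, numpy 2.4.6, scipy 1.17.1 and pandas 2.3.3 were used. No doublets were removed. Values of a few genes of the lists are not reported here.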

Additional observations from a re-analysis of the deposited data

Results flagged for a closer look

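Rgs16 was also found in fibroblasts of the PDGFRa library, which lies outside the comparison of pericytes. After thinning to 1000 UMIs, 128 of 12106 of these cells held an Rgs16 UMI, 1.06% (0.883 to 1.26%), against 0 of 10152 fibroblasts of the undamaged citrine library (upper bound 0.0363%) and 1 of 2304 of the undamaged tdTomato library. It was listed because this signal, in a mixed library of undamaged and ligated hearts, lies above that of the undamaged libraries. It also lies above that of fibroblasts of the ligated tdTomato library, 10 of 2782, 0.359% (0.173 to 0.660%). Unthinned, 649 fibroblasts of the PDGFRa library were positive, 5.36%. Among cells with at least 20 hashtag UMIs of which at least 80% were of 1 tag, the unthinned share was 9.06% of 2054 cells with hashtag 1 and 8.75% of 3350 with hashtag 2, and 0% of 544 with hashtag 3 and 0.282% of 1064 with hashtag 4; 5094 cells had no clear tag. The cells of the hashtags were not brought to the same depth, so these shares cannot be read apart from depth, and its part was not tested. The labels do not say which hashtag marks which heart or condition.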

How the results depend on the processing

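The share of pericytes with an Rgs16 UMI was 12.2% without thinning. The counts of genes higher and lower were 110 and 192 with all cells thinned to 1000 UMIs and 156 and 250 without matching. They were 181 and 207 with a minimum of 20 UMIs, 30 and 20 with 100, 1721 and 1070 with no minimum, and 191 and 215 at 1.5-fold. The lower count was 30 without cells with 2 or more fibroblast markers and 14 without cells with any, an alternative chosen after seeing the data, as was setting 1 Rgs16 UMI against 0, which gave 19 and 17. Of 348 values of 28 single genes under alternatives, 224 lay within the main interval, 110 lay outside it, and 14 were of called genes that changed sign. The log2 ratio of Cthrc1 was -0.0016 with at least 4 pericyte markers, -1.49 with at least 2 Rgs16 UMIs, -0.49 with Rgs16 status from thinned counts and -1.32 without cells above the 95th percentile of UMIs; 1 cell carries this gene. Lxn was at 0.60 with thinned counts. Without cells with 2 or more fibroblast markers the log2 ratios were 0.41 for Dpep1, 0.65 for Htra3, 0.38 for Apoe and 0.40 for Gsn; without cells with any they were 0.22 for Apoe, 0.26 for Dcn and 0.48 for Gsn. With 1 Rgs16 UMI against 0, Sele was at -0.15 and Cxcl2 at -1.70. The log2 ratio of Igfbp5 in citrine pericytes was 2.21 without matching, from 4 positive cells. The median log2 ratio over all tested genes of that split was 1.05. With 4 cells a group matched on depth, the Igfbp5 ratio (not log2) was 0.73 (0.343 to 1.46). Apart from Cthrc1 and the cells with fibroblast markers, the cause of these changes was not tested. Of 276 medians of 24 lists under alternatives, 245 stayed within the spread of the list and 31 moved beyond it. No paired analysis was possible because each group holds 1 library. The 442333 and 442352 UMIs of the matched groups limit the precision for genes below about 100 UMIs, and 1 library a group allows no estimate of the spread between hearts.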

Other observations

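In fibroblasts of the PDGFRa library the same split gave other values from those in ligated pericytes. With 648 cells a group matched on depth, 75 of 10834 genes were at least 2-fold higher in Rgs16-positive fibroblasts, 0.692%. Il6 stood at 472 against 385 CPM, a ratio of 1.23 (1.18 to 1.28), Sele at 1.19 (0.946 to 1.5), and Tnfsf9 at 0.87. Igfbp5 stood at 11.5 against 54.6 CPM, a ratio of 0.21 (0.173 to 0.253). Adamts4, the matrix protease, was at 95.9 against 62.3 CPM, a ratio of 1.54 (1.40 to 1.69). Cxcl10 had a ratio of 1.25 over all these cells, 2.06 among 186 matched pairs of hashtag 1 and 0.57 among 292 of hashtag 2. Igfbp5 was at 0.75 (0.393 to 1.37) in hashtag 1 and 0.22 (0.166 to 0.280) in hashtag 2, and Sele at 0.44 (0.296 to 0.626) and 1.35 (0.906 to 2.05). Whether the ratios differ between cell types was not tested.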
